A study of Mus musculus with 2 samples.

Results

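The genes of glycolysis and of the response to low oxygen were compared between primary and self-renewing mouse macrophages. The 38 members comprise 18 glycolytic enzymes, 7 genes of glucose and lactate transport and flux control, 5 regulators of hypoxia-inducible factor (HIF) and 8 other HIF targets. They were picked by name, and their probes were found by the RefSeq accession printed with each array probe. The members account for 38 of 22910 genes with a named probe, of which 15515 gave a signal well above background, by the scanner's own flag, on at least 1 array.

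Both cell types came from total bone marrow of C57BL/6 mice, labelled male, which was grown in RPMI1640 medium and FCS. The growth factor rhM-CSF was present at 100 ng/ml in both cultures. The primary macrophages were the adherent cells at day 5 by the label, within 5 to 7 days of culture by the methods. The self-renewing macrophages were taken after passage 4, when most cells had stopped dividing and growing colonies had appeared, so they are the cells that outlasted long culture rather than a defined clone. Each cell type has 1 array, so no test was made and no difference could be checked against replicates. Fewer cells of a type and less RNA per cell cannot be told apart in such bulk RNA.

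Glycolysis turns glucose into pyruvate in the cytosol, and lactate dehydrogenase turns pyruvate into lactate, which monocarboxylate transporters carry out of the cell. HIF is a transcription factor whose alpha subunit is hydroxylated by the EGLN prolyl hydroxylases when oxygen is present, bound by VHL and degraded; when oxygen is short it accumulates and switches on glycolytic enzymes, lactate export and genes that limit mitochondrial respiration. Macrophages rely on this programme in inflamed tissue, where oxygen is low, and HIF-1 alpha also acts in their activation at normal oxygen.

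On the arrays, 34807 of 56598 probes were well above background in the primary and 33095 in the self-renewing macrophages, and 0 spots were saturated. Levels are given as log2 of the background-corrected intensity relative to the 75th percentile of the same array, and differences as self-renewing minus primary. Intensities are quoted before that scaling, the primary array first, while folds and log2 differences are after it. Spots of the same probe varied by an SD of 0.043 and 0.047 log2, and the log2 differences given by separate probes of 1 gene had an SD of 0.319 over 5077 genes, or 0.145 over 15 members. The labelled sex did not match the signals of the primary array, where 0 of 6 Y-linked genes were well above background and Xist passed. On the self-renewing array 4 Y-linked genes passed and Xist did not. Cell type therefore cannot be told apart from sex or donor in any difference given here. Values are also given without Pgk1 and Pdk3, the 2 members on the X chromosome, which does not remove that limit. All 10 macrophage markers were well above background on both arrays, with a summed intensity of 416966 in the primary and 555827 in the self-renewing macrophages. They did not move together, as 8 were higher and 2 lower in the self-renewing cells. Fcgr1 was 3.39-fold and Mrc1 1.75-fold lower, while Mertk was 4.68-fold higher. Of 10 detected markers of neutrophils, 9 had lower signals in the self-renewing cells, with a summed intensity of 2956 against 45802 in the primary cells. Of these, S100a8, S100a9, Ltf, Ngp and Prtn3 did not stand well above background after passage. In the primary and self-renewing macrophages, in that order, monocyte markers summed to 16173 and 33855, of which Ly6c2 made up 5025 and 29296, although 4 of 7 were at least 2-fold lower (Ccr2, Chil3, Plac8 and Nr4a1) with a median of -1.84 log2. The other lists were lower in sum, with B cell markers at 906 and 171, erythroid markers at 703 and 342, T and NK cell markers at 1208 and 1176, and stromal and endothelial markers at 4358 and 4122. The part of these cells in the results that follow was not tested.

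Promoter windows bear on these genes because HIF binds a short core motif. RefSeq windows of 300 bases on GRCm38.p6, from 250 before to 50 after the transcription start, were at hand for 36 of 38 members, as 53 windows. The letters ACGTG and GCGTG were searched on both strands, as CACGT and CACGC on the other, with overlapping matches merged. The windows of Slc16a1, Bnip3 and Pgk1, all lower in the self-renewing macrophages, are shown with those of Hk2 and P4ha1, both higher, and the capitals mark the motif matches. Slc16a1 lies at chr3:104638414-104638713 on the plus strand, Bnip3 at chr7:138909457-138909756 on the minus strand, Pgk1 at chrX:106186850-106187149 on the plus strand, Hk2 at chr6:82774405-82774704 on the minus strand and P4ha1 at chr10:59323046-59323345 on the plus strand, each given 5′ to 3′ along its gene.
Slc16a1: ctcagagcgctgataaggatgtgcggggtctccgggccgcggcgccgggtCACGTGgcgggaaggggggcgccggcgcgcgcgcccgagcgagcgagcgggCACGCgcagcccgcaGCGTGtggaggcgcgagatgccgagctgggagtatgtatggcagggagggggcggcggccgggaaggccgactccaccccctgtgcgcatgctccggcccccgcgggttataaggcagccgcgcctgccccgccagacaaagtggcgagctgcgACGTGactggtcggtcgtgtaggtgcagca
Bnip3: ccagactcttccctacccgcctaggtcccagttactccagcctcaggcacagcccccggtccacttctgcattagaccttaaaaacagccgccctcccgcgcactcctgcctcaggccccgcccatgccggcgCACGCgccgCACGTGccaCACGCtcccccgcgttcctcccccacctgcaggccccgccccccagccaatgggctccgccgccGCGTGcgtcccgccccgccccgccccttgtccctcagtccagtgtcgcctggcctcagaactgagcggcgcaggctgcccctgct
Pgk1: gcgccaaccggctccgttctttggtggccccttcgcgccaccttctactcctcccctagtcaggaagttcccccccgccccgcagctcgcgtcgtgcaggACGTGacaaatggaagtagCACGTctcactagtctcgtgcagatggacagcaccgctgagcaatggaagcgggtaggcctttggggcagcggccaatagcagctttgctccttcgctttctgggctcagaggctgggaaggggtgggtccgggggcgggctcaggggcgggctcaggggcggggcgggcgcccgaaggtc
Hk2: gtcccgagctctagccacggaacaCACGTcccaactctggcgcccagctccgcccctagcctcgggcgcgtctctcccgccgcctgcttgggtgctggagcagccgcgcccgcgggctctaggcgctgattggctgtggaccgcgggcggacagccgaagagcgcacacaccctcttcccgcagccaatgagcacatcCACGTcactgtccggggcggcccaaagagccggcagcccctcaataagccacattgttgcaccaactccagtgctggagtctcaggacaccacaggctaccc
P4ha1: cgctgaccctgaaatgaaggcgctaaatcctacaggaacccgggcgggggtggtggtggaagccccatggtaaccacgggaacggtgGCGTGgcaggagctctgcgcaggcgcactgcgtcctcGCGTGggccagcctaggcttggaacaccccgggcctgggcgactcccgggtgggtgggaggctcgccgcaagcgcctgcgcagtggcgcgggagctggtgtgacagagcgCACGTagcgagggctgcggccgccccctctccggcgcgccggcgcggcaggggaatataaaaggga

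The windows hold 4 matching stretches for Slc16a1, 4 for Bnip3, 2 for Pgk1, 2 for Hk2 and 3 for P4ha1. Over the members, 75.5% of windows held the motif, against 43.8% of all 32851 RefSeq windows, and 50.9% held at least 2 stretches, against 17.3%. The median content of C and G was 62.7% in the members' windows and 52.7% in all windows, and both motifs hold the bases CG. By gene, the motif stood in 7 of 8 members at least 2-fold lower, in 18 of 21 members lower by less than that, and in 6 of 7 members that were higher. Members of opposite direction thus held the letters in like shares. The windows of Tpi1, Gpi1, Eno2, Hif1an and Vhl held no match, which says only that these letters are not in the window.

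**Figure D1:**
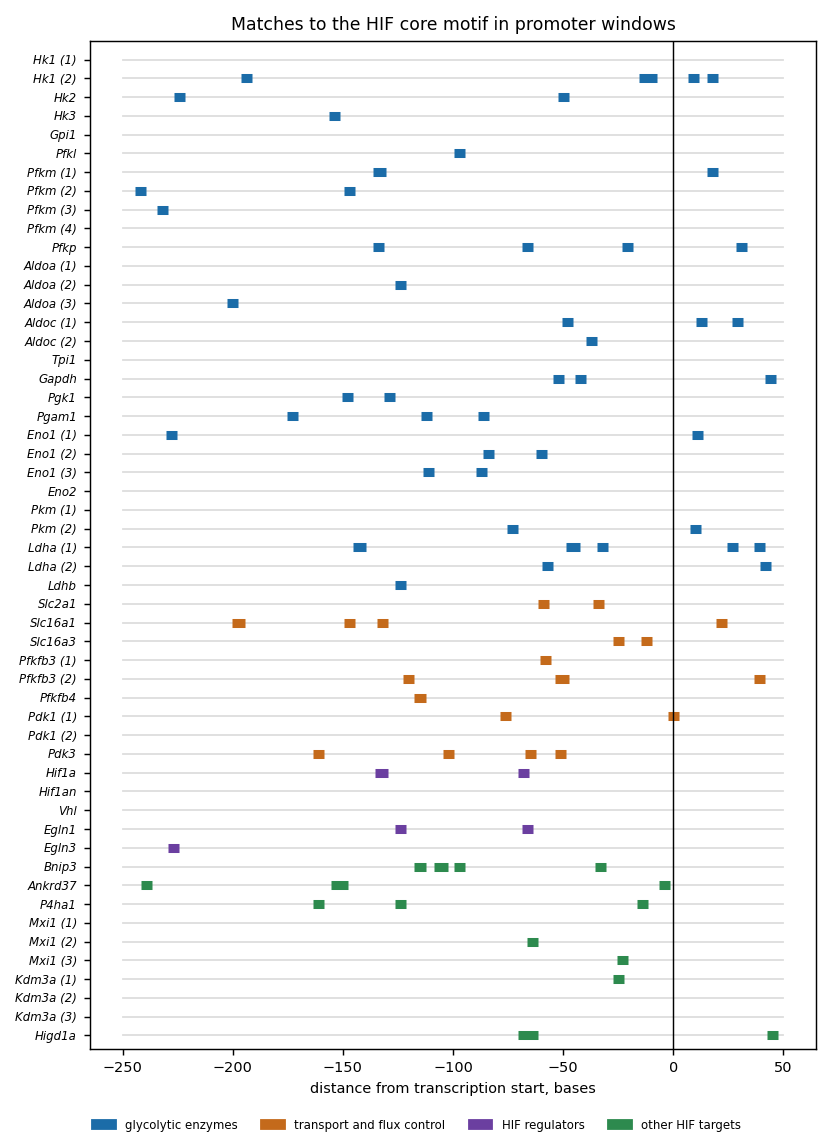
Position of each match to ACGTG or GCGTG, on either strand, in the 53 promoter windows of 36 members; the x axis is the distance from the transcription start in bases, each row is a window (numbers tell windows of the same gene apart) and colours give the gene group. Of the windows, 40 hold at least 1 match.

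Most members gave a lower signal in the self-renewing macrophages. Of 38 members, 31 were lower and 7 higher, where 52.0% of all genes were lower. Their median difference was -0.47 log2, or 1.39-fold lower, with quartiles of -0.94 and -0.19 log2, against -0.019 log2 with quartiles of -0.33 and 0.27 log2 over all genes. At least 2-fold lower were 8 members, Pgk1, Eno2, Ldhb, Slc16a1, Slc16a3, Pdk3, Egln3 and Bnip3, which is 21.1% of the members against 8.38% of all genes. None (0) was at least 2-fold higher, against 4.76% of all genes. Beyond 5-fold were Ldhb, Slc16a1 and Egln3, all lower, a fold that 2.93% of all genes reached in that direction and 1.02% in the other. Without Pgk1 and Pdk3, 6 of 36 members were at least 2-fold lower; of 505 measured genes on the X chromosome, 11.1% were so. With the authors' own scaling, which moves every gene up by 0.19 log2, 28 members were lower and 10 higher, since Hk1, Slc2a1 and Vhl changed direction, while the median of all genes stood at 0.17 log2.

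**Figure D2:**
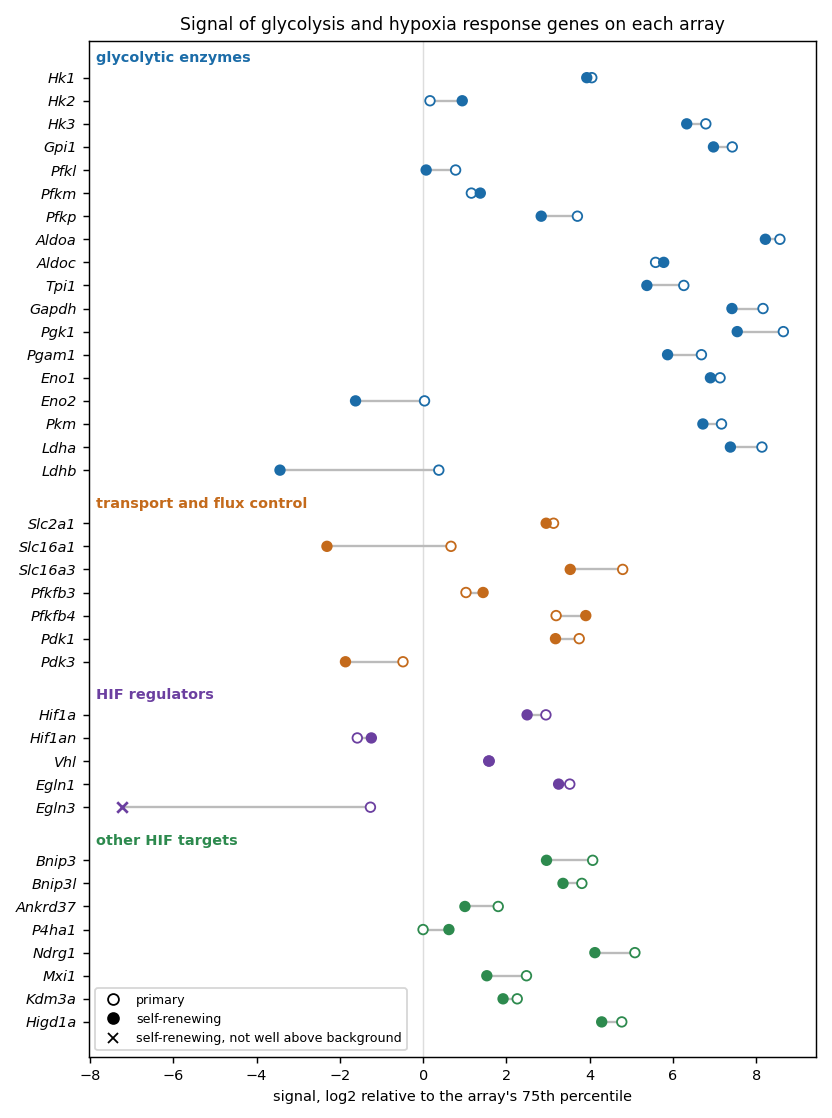
Level of each member on the primary array (open) and the self-renewing array (filled), in log2 relative to that array's 75th percentile; the cross is a signal not well above background. Filled points lie left of open points for 31 of 38 members, farthest for Ldhb, Slc16a1 and Egln3.

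Among the glycolytic enzymes, 15 of 18 were lower and 3 higher, with a median of -0.58 log2, or 1.50-fold lower. The members at least 2-fold lower were 3, Pgk1, Eno2 and Ldhb. Hexokinases trap glucose in the cell by phosphorylating it. Hk1, the form of most tissues, had an intensity of 7181 in the primary and 6795 in the self-renewing macrophages, a difference of -0.12 log2 that became 0.067 log2 with the authors' scaling and whose second, dim probe gave 0.065 log2. Hk2, the inducible form and a HIF target, read 486 and 855, a signal 1.71-fold higher after passage. Hk3, found in myeloid cells, read 47914 and 35876, a difference of -0.46 log2. The hexokinases therefore stood 1.23 log2 apart at most, between Hk2 and Hk3, which is more than the SD between probes.

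Gpi1, which turns glucose phosphate into fructose phosphate, read 74427 and 55984, a difference of -0.45 log2. Phosphofructokinase sets the committed step of the pathway, and its 3 subunits went different ways. The platelet-type subunit Pfkp read 5653 and 3184 and was 1.83-fold lower. The liver-type subunit Pfkl, at 744 and 469, was 1.63-fold lower, while the muscle-type subunit Pfkm, at 968 and 1155, had a difference of 0.21 log2. Aldolase splits the sugar bisphosphate. Aldoa read 164469 and 132840, a difference of -0.35 log2, and Aldoc, the form of brain, read 20765 and 24449, a difference of 0.19 log2. Triose phosphate isomerase, Tpi1, which interconverts the products of aldolase, read 33216 and 18478 and was 1.85-fold lower. From hexokinase to Tpi1, 7 of 10 enzymes were lower, 0 by 2-fold, with a median of -0.40 log2.

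From Gapdh to lactate dehydrogenase all 8 enzymes were lower, 3 by at least 2-fold, with a median of -0.79 log2, in a split of the pathway made after the values were seen. Gapdh, which reduces NAD while it oxidises the triose, read 124140 and 76156 and was 1.68-fold lower, with its 6 probes between -0.83 and -0.62 log2. Gapdh is often used to scale RNA measurements, and here its signal differed between the cell types by more than its probes differed from each other. Pgk1, the first enzyme of the pathway to make ATP, read 174140 in the primary and 83151 in the self-renewing macrophages. It was 2.15-fold lower by its reporting probe, but short of 2-fold at -0.92 log2 with the authors' scaling and at -0.97 log2 with quantile normalization. The mutase Pgam1 read 44540 and 26082 and was 1.76-fold lower.

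Enolase makes phosphoenolpyruvate. Eno1, its common form, read 60731 and 53226, with differences of -0.23 and -0.60 log2 by probe; Eno1b, a near-identical copy added after its values were seen, had -0.50 log2, and signal of such copies cannot be told apart here. Eno2, the form of neurons and a HIF target, read 444 and 145 and was 3.15-fold lower. The enolases were 1.43 log2 apart. Pkm, which makes pyruvate and ATP, read 62216 and 46944, a difference of -0.45 log2. Whether its probes tell the M1 and M2 forms apart was not examined.

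Ldha, the lactate dehydrogenase subunit that HIF induces, read 121942 and 74192 and was 1.69-fold lower, with -1.08 log2 at its other probe. Ldhb, the subunit of the form that favours the oxidation of lactate, read 563 in the primary and 41.2 in the self-renewing macrophages. It was 14.1-fold lower, the largest difference among members well above background on both arrays, and its second probe gave a bound of -3.13 log2. The gap between Ldha and Ldhb was 3.06 log2, the widest among the families of glycolytic enzymes. Gapdh, Pgk1, Tpi1, Ldha and Eno1 have processed copies elsewhere in the genome, and probe sequences were not used here, so their share in these signals was not tested.

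**Figure D3:**
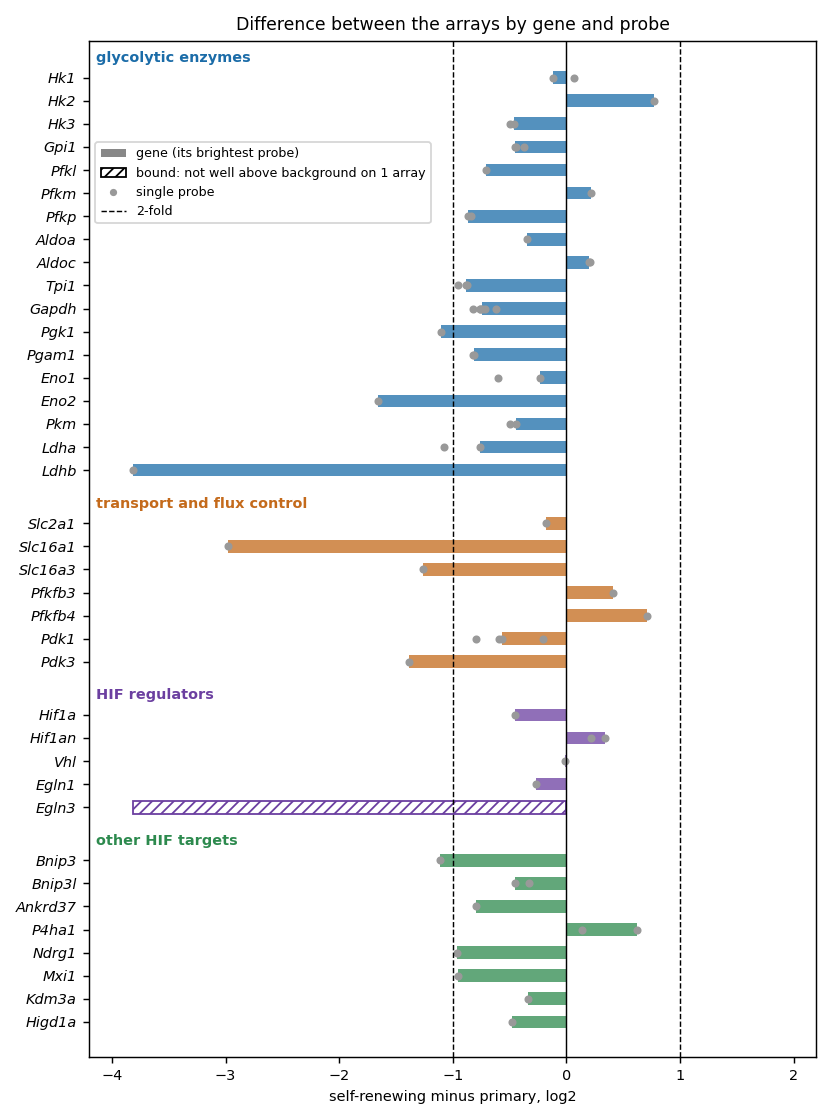
Difference of each member, self-renewing minus primary in log2; bars are the probe of highest mean signal, dots each probe well above background on both arrays, the hatched bar is a bound and dashed lines mark 2-fold. Bars of 8 members reach the left line and 0 the right one, and probes of the same member lie close together except in Eno1, Ldha, Pdk1 and P4ha1.

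Of the 7 members in transport and flux control, 5 were lower, 3 of them by at least 2-fold, and the median was -0.57 log2. Glucose enters through Slc2a1 (GLUT1), which read 3800 and 3458, a difference of -0.18 log2 that became 0.011 log2 with the authors' scaling. Lactate leaves through the monocarboxylate transporters, and both among the members were lower. Slc16a7 (MCT2), which is no member and was added after its values were seen, was at 0.22 log2, with its probes between -0.21 and 0.61 log2. Slc16a1 (MCT1), which carries lactate either way, read 689 in the primary and 90.0 in the self-renewing macrophages and was 7.88-fold lower. Slc16a3 (MCT4), the exporter of strongly glycolytic cells and a HIF target, read 12012 and 5161 and was 2.39-fold lower. The signal of Slc2a1 thus differed by less than the SD of 0.319 log2 between probes over all genes, and Slc16a1 and Slc16a3 by more. The difference of Slc2a1, from 1 probe, was above the SD of 0.145 log2 over the members.

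The bifunctional enzymes Pfkfb3 and Pfkfb4 set the level of the sugar bisphosphate that activates phosphofructokinase, and they went the other way. Pfkfb3, at 885 and 1210, was 1.33-fold higher after passage, and Pfkfb4, at 3966 and 6684, was 1.64-fold higher. With Hk2 these were the members of the glycolytic groups that were higher by more than the SD of 0.319 log2 between probes over all genes. With normexp background correction Pfkfb3 was at 0.31 log2, inside that SD. Pfkm and Aldoc, at 0.21 and 0.19 log2, were above only the SD of 0.145 log2 over the members. Pyruvate dehydrogenase kinases block the entry of pyruvate into the mitochondrial cycle. Pdk1, a HIF target, read 5824 and 4038, with 4 probes between -0.79 and -0.20 log2, and Pdk3 read 310 and 122 and was 2.60-fold lower. Pdk2, which is no member and was added after its values were seen, read 196 and 338 and was 1.68-fold higher. Pdk3 lies on the X chromosome and stood at -0.98 log2, short of 2-fold, with normexp background correction. Without Pgk1 the median of the enzymes was -0.46 log2, and without Pdk3 that of transport and flux control was -0.37 log2.

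The HIF regulators had a median of -0.27 log2, with 4 of 5 lower. Hif1a, the oxygen-labile subunit, read 3346 and 2517 and was 1.37-fold lower at the RNA level, while its protein was not measured. Egln1, the main prolyl hydroxylase, read 4978 and 4254, a difference of -0.27 log2. Egln3, a hydroxylase that is itself a HIF target, read 180 in the primary macrophages and did not pass the background flag on the self-renewing array, at least 14.1-fold lower. Hif1an, which hydroxylates the activation domain of HIF, read 145 and 188, a difference of 0.34 log2. Vhl, which recognises the hydroxylated subunit, read 1303 and 1328, a difference of -0.013 log2 that became 0.17 log2 with the authors' scaling. Of these 5 genes, Egln3 alone was past 2-fold, and its bound shrank to -1.83 log2 with normexp background correction.

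The other HIF targets had a median of -0.64 log2, with 7 of 8 lower. Bnip3, which directs mitochondria to autophagy, read 7291 and 3477 and was 2.16-fold lower, or at -0.92 log2 with the authors' scaling. Its relative Bnip3l, at 6088 and 4575, was at -0.45 log2, and the gap between them was 0.66 log2. Just under 2-fold stood Ndrg1, a stress-response gene, at 14717 and 7778 and 1.95-fold lower. Mxi1, a MYC antagonist, read 2421 and 1287 and was 1.93-fold lower. Ankrd37, an ankyrin-repeat protein, read 1513 and 894 and was 1.74-fold lower. Higd1a, a mitochondrial inner membrane protein, read 11828 and 8712 and was 1.40-fold lower. The histone demethylase Kdm3a read 2076 and 1687, a difference of -0.34 log2. P4ha1, a collagen prolyl hydroxylase, was the exception at 433 and 685, 1.54-fold higher by its reporting probe and 0.14 log2 by its other. Within these 8 members most were lower, and Bnip3 alone was past 2-fold.

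Set against each other, the enzymes at -0.58 log2 and the 13 HIF regulators and other targets at -0.45 log2 differed by -0.13 log2. The spread between probes gives a tolerance of 0.146 log2 for such a difference of medians, and the difference was inside it. That tolerance leaves out the spread between genes and between cultures, so it is no measure of precision. The difference was 0.0084 log2 with quantile normalization, 0.058 log2 when the regulators were left out and -0.16 log2 with normexp background correction, so the order of the groups was not settled. The span within each group was wider than the gap between them, from -3.81 to 0.77 log2 in the enzymes and from a bound of -3.82 to 0.62 log2 in the HIF group.

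**Figure D4:**
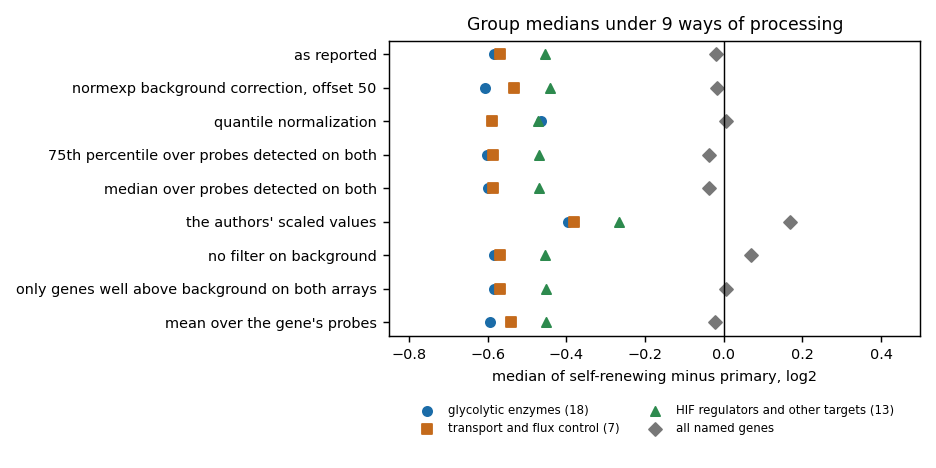
Median difference, self-renewing minus primary in log2, of the 3 gene groups and of all genes under 9 ways of processing. The group medians lie between -0.61 and -0.26 log2 throughout, and the authors' scaling moves all 4 points to the right.

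Other genes of the same pathways were taken from lists written by function. Of 123 genes listed, 104 were measured, 53 of them lower and 51 higher. Their median of -0.023 log2 was close to that over all genes. At least 2-fold lower were 13, a larger share than the 8.38% of all genes. At least 2-fold higher were 5, or 4.81%, which is close to the 4.76% of all genes. Of 19 measured isozymes and hexose transporters, 3 (15.8%) were at least 2-fold lower, Slc2a3, Ldhd and Ldhc, and 0 at least 2-fold higher. The median of these 19 was 0.029 log2. Slc2a3 (GLUT3), a high-affinity glucose transporter, read 554 in the primary macrophages and did not pass the background flag on the self-renewing array, at least 43.3-fold lower. Its bound shrank to -3.14 log2 with normexp background correction. Ldhd, which oxidises D-lactate, and the testis form Ldhc were dim and also passed the flag on the primary array alone, with bounds of -1.51 and -1.28 log2, and that of Ldhd was -0.54 log2 with normexp. Slc2a6, another hexose transporter, added after its values were seen, read 5434 and 10582 and was 1.89-fold higher. The transporters of glucose thus included a large difference at Slc2a3 where that of Slc2a1 was -0.18 log2.

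The pathways that branch from glycolysis had medians between -0.034 and 0.19 log2. In the pentose phosphate pathway, which makes NADPH and ribose, 7 of 11 genes were lower with a median of -0.034 log2. Its entry enzyme G6pdx read 18596 and 13394, a difference of -0.51 log2, and Prps1, which makes the nucleotide precursor from ribose phosphate and was added after its values were seen, was 2.21-fold lower. Both lie on the X chromosome. In pyruvate entry to mitochondria, 9 of 12 genes were higher with a median of 0.19 log2. Pyruvate carboxylase, Pcx, which makes oxaloacetate from pyruvate, read 339 and 876 and was 2.51-fold higher. The pyruvate carrier Mpc1 was at 0.077 log2 and the pyruvate dehydrogenase subunit Pdha1, also on the X chromosome, at -0.49 log2. None (0) of 12 measured glycogen genes was past 2-fold, and their median was -0.0011 log2.

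Of the HIF machinery beside the members, 9 of 14 genes were higher, with a median of 0.11 log2. Epas1, which encodes HIF-2 alpha, read 323 in the primary and 1883 in the self-renewing macrophages and was 5.67-fold higher, where Hif1a was 1.37-fold lower. The 2 alpha subunits therefore differed in opposite directions, with Epas1 far outside the spread between probes. Their shared partner Arnt was at 0.34 log2 and the prolyl hydroxylase Egln2 at 0.12 log2. The transmembrane prolyl hydroxylase P4htm was dim, at 59.1 and 23.9, and was 2.55-fold lower.

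Of 36 further HIF targets, 25 were lower, 8 by at least 2-fold, and 3 were at least 2-fold higher, with a median of -0.23 log2. Vegfa, the growth factor of blood vessels, read 1147 and 27.8 and was 42.4-fold lower by its reporting probe, while its other probes gave bounds of -5.62 and -4.06 log2 and, at a dim probe, -0.65 log2. Angptl4, an inhibitor of lipoprotein lipase, read 854 and 50.7 and was 17.3-fold lower. The mitochondrial adenylate kinase Ak4 read 443 in the primary macrophages and did not pass the background flag on the self-renewing array, at least 34.7-fold lower, while its dim second probe had a bound of -1.75 log2, and both probes averaged -3.43 log2. By the reporting probes, Vegfa, Angptl4 and Ak4 were further down than any member well above background on both arrays. The value of Egln3 is a bound, so it cannot be ranked with them. With normexp background correction Vegfa was at -3.77 log2, Angptl4 at -3.10 log2 and Ak4 at a bound of -3.01 log2. Ppfia4, a liprin, was 53.1-fold lower by its reporting probe, at 2033 and 39.4. Another of its probes gave a bound of -5.71 log2, and a dim probe gave 0.64 log2. Fut11, a fucosyltransferase, was 2.93-fold lower, but short of 2-fold at -0.83 log2 with normexp. The transferrin receptor Tfrc was 2.66-fold lower. Mif, added after its values were seen, read 27037 and 11947 and was 2.33-fold lower.

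In the other direction, the collagen lysyl hydroxylase Plod2 read 38.9 and 196 and was 4.88-fold higher, the chemokine receptor Cxcr4 read 330 and 1390 and was 4.09-fold higher, and the repressor Bhlhe41 read 72.5 and 168 and was 2.26-fold higher. The call for Bhlhe41 was lost at its other probe, with 0.88 log2, and with normexp background correction, with 0.80 log2. Plod2, like P4ha1, modifies collagen. Their relatives in the same list went the other way, with P4ha2 2.29-fold lower and Plod1 at -0.42 log2, both added after their values were seen. Past 2-fold, the further HIF targets stood at 22.2% lower and 8.33% higher, beside 8.38% and 4.76% of all genes, which lean the same way.

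**Figure D5:**
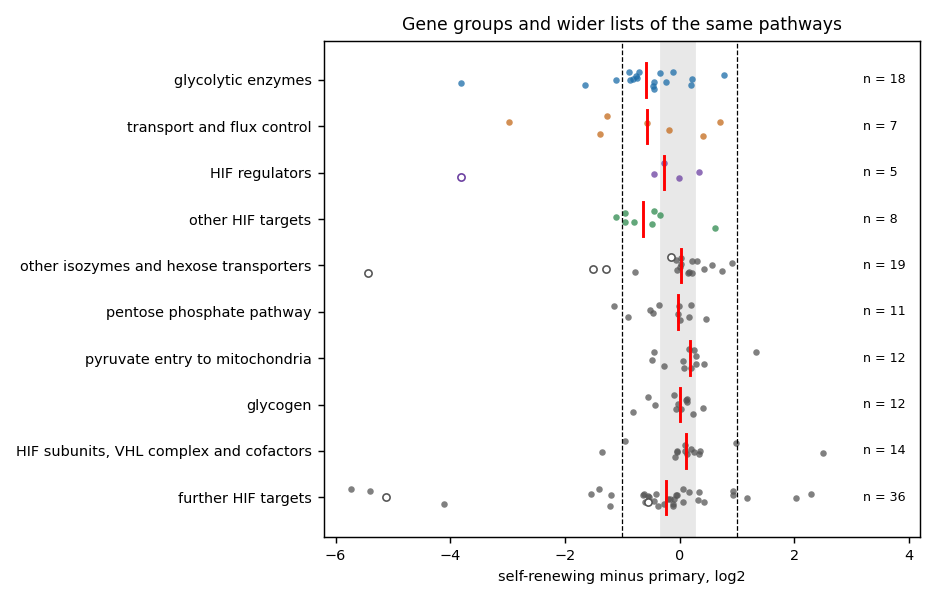
Difference of every measured gene in the 4 groups of members and 6 wider lists, self-renewing minus primary in log2; red bars are medians, open points are bounds, dashed lines mark 2-fold and the grey band holds the middle quartiles of all genes, from -0.33 to 0.27 log2. The medians of the enzymes, transport and other HIF targets lie left of the band, and those of the wider lists inside it.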

How the data were processed

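RNA of 1 culture of each cell type was hybridised to a SurePrint G3 mouse array with a single dye. The authors deposited spot intensity values from Feature Extraction 11.5.1.1, with background already subtracted within each array, and flags that mark spots well above background. They also deposited a table of these intensities times a constant, 1.07 on the primary and 1.19 on the self-renewing array; the rule behind the constants is not given in the sources used here. From the deposited intensities, log2 values were computed here and scaled by subtracting, on each array, the 75th percentile over its gene probes, at an intensity of 434 and 446. Control spots and 63 outlier spots per array were dropped, and spots of 1 probe were averaged. RefSeq accessions of GRCm38.p6 named 32988 of 56598 probes, for 22910 genes. The array design is annotated to mm9, so no probe coordinates are given.

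A gene was represented by its brightest probe, by the mean of both arrays, among probes that passed the background flag on at least 1 array. Where a gene passed on 1 array, the difference is a bound: its value there was set against the larger of the probe's own signal on the other array and the dimmest signal that passed on it. With 1 array for each cell type there is no replicate spread, so no test was made and the number of arrays limits all precision. The tolerance for a group's median was taken from the spread between probes of the same gene, and it leaves out the spread between genes and between cultures. The procedure was also run on simulated data, with larger changes than most members had and less noise than the spread between probes. That run checks the code and says nothing of the precision of the values given here.

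The members and lists were chosen with earlier results of these data known. The named genes are all members and, of the wider lists, those different by at least 2-fold, up to the 8 largest in each direction, with 8 genes fixed by name. Ldhc, P4htm, Prps1, Slc2a6, Slc16a7, Eno1b, P4ha2, Plod1, Mif and Pdk2 were added after their values were seen. The alternatives were normexp correction of the median spot signal with an offset of 50, the authors' scaled table, quantile normalization, scaling to probes that passed on both arrays (their 75th percentile, or their median), all genes without the background flag, genes that passed on both arrays, the mean of a gene's probes, and other groupings of members. Leaving out members on the X chromosome was chosen after seeing the data. Tools were Python 3.11.15, numpy 2.4.6, pandas 2.3.3, matplotlib 3.10.9, R 4.3.3 and limma 3.58.1.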

Additional observations from a re-analysis of the deposited data

How the results depend on the processing

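No paired analysis was possible because there is 1 array for each cell type. The authors' scaled table adds 0.19 log2 to all differences. With it the medians were -0.39 log2 for the glycolytic enzymes, -0.38 log2 for transport and flux control and -0.26 log2 for the HIF regulators and other HIF targets, and 49.2% of all genes past 2-fold were higher, against 36.2% as reported. Quantile normalization gave -0.46 log2 for the enzymes. Without the members on the X chromosome, an alternative chosen after seeing the data, the enzymes were at -0.46 log2 and transport and flux control at -0.37 log2. The enzymes minus the HIF group came to 0.058 log2 with the HIF regulators left out. The regulators had a median of -0.27 log2, and the other HIF targets, which remain, had -0.64 log2. Under the 8 other ways of processing, 0 members were at least 2-fold higher and 6 to 8 at least 2-fold lower. Over all named genes, 739 were at least 2-fold higher and 1300 lower as reported, 429 and 750 with normexp, and 1192 and 2336 without the background flag, which takes in dim genes. Among genes that passed the flag on both arrays, 782 were lower. At 5-fold, 159 were higher and 454 lower as reported, 74 and 192 with normexp, 259 and 778 without the flag, and 201 were lower among genes that passed on both arrays. Of 444 alternative values for 56 named genes, 422 shifted by under the SD between probes and 22, in 14 genes, by more. Of the 38 members, 28 were lower and 7 higher in every case, and Hk1, Slc2a1 and Vhl changed direction with the authors' scaled table. With normexp, whose offset draws dim signals together, Ldhb was at -2.52 log2, Slc16a1 at -2.30 log2 and Egln3 at a bound of -1.83 log2, and without the background flag Egln3 was at -5.96 log2. Outside the members, normexp put Epas1 at 2.07 log2 and Plod2 at 1.34 log2.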
